A study of Caenorhabditis elegans with 2 samples.

Results

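The genes described here are all 475 snoRNA and snRNA genes on the 6 nuclear chromosomes of Caenorhabditis elegans, taken by their biotype in the ce11 Ensembl annotation from 46890 annotated genes. Of them, 346 are annotated as snoRNA and 129 as snRNA, and all 475 had a symbol in RefSeq. They were examined in a ChIP-seq experiment on MXL-2, the dimer partner of MML-1 and a transcription factor of the Max-like family, whose members bind DNA as helix-loop-helix dimers. Whole L4 larvae of strain RW12316 were used, 48 h old and synchronised as starved L1 larvae after bleaching. In this strain CRISPR was used to insert TY1, EGFP and 3xFLAG tags into mxl-2 at its locus on chromosome III, and chromatin sonicated to 200 to 800 bp was precipitated with an antibody to GFP, although the antibody field of the labels names mxl-2. The libraries form 1 group of 2 biological replicates, whole larvae mix the chromatin of all tissues, and a possible control experiment that the labels name was not analysed here. No signal below can therefore be set against untagged worms or input chromatin.

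Small nucleolar RNAs guide chemical changes of other RNAs. Those with boxes C and D direct 2′-O-methylation and those with boxes H and ACA direct pseudouridylation, mostly of ribosomal RNA. Small nuclear RNAs form the core of the spliceosome, and in nematodes the SL RNAs, here the sls-1 and sls-2 genes, donate the spliced leaders that are joined to many mRNAs. A snoRNA gene may lie in an intron of a host gene and be released when the host is spliced, or it may have a promoter of its own. RNA polymerase III recognises tRNA genes through a pair of internal elements, box A and box B, which recruit TFIIIC, whereas snRNA genes of many animals carry a proximal sequence element upstream of the start. Max-like proteins are best known for binding the E-box CACGTG.

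The sequences at the overlapped genes are given first because later counts are grouped by them. Box A was searched as TGGC, any 2 bases, AGTGG with up to 3 mismatches, and box B as GGTTCGA, any 2 bases, CC with up to 2 mismatches. Box A had to come first, with 25 to 74 bp between the starts of the boxes, within 120 bp upstream to 30 bp downstream of the annotated 5′ end. Both were read in the direction of the gene, and they were written out from the form that tRNA genes have after the sequences at these regions had been seen. The pair was found at 55 of 346 snoRNA genes and 8 of 129 snRNA genes in that direction, and on the opposite strand at 10 snoRNA and 5 snRNA genes. In the same window at all 19973 protein-coding 5′ ends the pair was found at 147 (0.736%) in the direction of the gene and at 352 (1.76%) on either strand. As a check of the search, 572 of 612 annotated tRNA genes (93.5%) held the pair between 10 bp before and 140 bp after their 5′ end. The following windows of 150 bases, from RefSeq's ce11 genome sequence, run 5′ to 3′ in the direction of the gene. The last 30 bases are the start of the annotated gene, and capitals mark box A and then box B. All of these snoRNA genes had a region of the thresholded list except the final pair, T24H7.6 and Y59E1B.14. Both boxes match without a mismatch in that pair and in Y43F8C.22, so 1 of the 3 full matches was overlapped.
W03C9.9 (chrII:11960778-11960927, plus strand): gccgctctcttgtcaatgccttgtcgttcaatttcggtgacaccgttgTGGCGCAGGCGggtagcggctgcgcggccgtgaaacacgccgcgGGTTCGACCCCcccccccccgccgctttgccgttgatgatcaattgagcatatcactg
C10C6.8 (chrIV:11474162-11474311, minus strand): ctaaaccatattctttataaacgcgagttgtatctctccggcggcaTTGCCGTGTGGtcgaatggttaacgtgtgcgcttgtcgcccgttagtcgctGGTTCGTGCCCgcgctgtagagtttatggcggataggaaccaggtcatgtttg
Y43F8C.22 (chrV:19643158-19643307, minus strand): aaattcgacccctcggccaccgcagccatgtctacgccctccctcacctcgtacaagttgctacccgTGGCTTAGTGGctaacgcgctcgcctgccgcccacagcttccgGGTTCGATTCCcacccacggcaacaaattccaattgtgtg
T06C12.16 (chrV:15873897-15874046, minus strand): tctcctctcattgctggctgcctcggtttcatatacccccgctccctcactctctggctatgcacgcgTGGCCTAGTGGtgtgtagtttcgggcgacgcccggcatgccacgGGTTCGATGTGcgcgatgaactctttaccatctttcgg
Y75B12B.12 (chrV:15191064-15191213, minus strand): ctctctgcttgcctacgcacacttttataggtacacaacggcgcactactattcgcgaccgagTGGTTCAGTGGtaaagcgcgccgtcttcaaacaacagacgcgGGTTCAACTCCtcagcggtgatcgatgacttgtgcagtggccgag
C53B7.8 (chrX:6867818-6867967, plus strand): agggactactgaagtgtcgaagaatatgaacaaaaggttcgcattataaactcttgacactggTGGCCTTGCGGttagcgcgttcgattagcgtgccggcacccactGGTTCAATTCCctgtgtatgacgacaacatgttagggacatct
M106.6 (chrII:10840197-10840346, plus strand): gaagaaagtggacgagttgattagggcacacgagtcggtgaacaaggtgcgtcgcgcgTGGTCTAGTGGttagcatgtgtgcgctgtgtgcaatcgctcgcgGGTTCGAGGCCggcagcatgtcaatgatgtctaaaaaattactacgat
T24H7.6 (chrII:6248597-6248746, plus strand): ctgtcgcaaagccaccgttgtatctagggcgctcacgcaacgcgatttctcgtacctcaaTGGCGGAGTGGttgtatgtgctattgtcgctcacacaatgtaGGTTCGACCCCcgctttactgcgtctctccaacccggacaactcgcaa
Y59E1B.14 (chrX:1891389-1891538, plus strand): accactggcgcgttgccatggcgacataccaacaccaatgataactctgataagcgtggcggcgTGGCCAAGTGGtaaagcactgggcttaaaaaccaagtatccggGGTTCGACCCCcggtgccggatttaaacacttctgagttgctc

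The other recurrent element was searched as AACCCG, any 5 bases, TGTCGG with up to 3 mismatches, in the same window and direction, and is called the proximal element here. It was found at 95 of 129 snRNA genes and at 48 of 346 snoRNA genes, and at 431 (2.16%) of the protein-coding 5′ ends, or 801 (4.01%) on either strand. At snRNA genes it started at a median of 58 bp upstream (quartiles 59 and 57 bp). The snoRNA genes ZK994.7 and Y53F4B.47 and the snRNA genes sup-6 and W05B2.8 are shown with the element in capitals, since all 4 had a region and none held boxes A and B.
ZK994.7 (chrV:8500459-8500608, plus strand): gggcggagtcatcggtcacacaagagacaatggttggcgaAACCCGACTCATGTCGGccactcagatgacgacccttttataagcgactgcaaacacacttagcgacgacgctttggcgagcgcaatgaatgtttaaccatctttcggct
Y53F4B.47 (chrII:15025864-15026013, minus strand): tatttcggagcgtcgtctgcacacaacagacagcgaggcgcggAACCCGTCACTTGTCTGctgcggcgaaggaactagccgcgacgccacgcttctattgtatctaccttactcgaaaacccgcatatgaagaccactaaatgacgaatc
sup-6 (chrII:12944938-12945087, minus strand): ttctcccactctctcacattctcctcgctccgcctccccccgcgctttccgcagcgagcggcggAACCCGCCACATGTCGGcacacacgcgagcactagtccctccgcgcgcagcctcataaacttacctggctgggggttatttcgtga
W05B2.8 (chrIII:10989559-10989708, plus strand): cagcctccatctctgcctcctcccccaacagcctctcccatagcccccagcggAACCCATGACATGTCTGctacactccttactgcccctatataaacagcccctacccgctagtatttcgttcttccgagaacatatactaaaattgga

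A gene counted as overlapped where a region of the thresholded whole-experiment list covered at least 1 bp of it. Regions are overlapping peaks joined into 1, and the list holds those whose irreproducible discovery rate (IDR, the estimated share of inconsistent calls between the sets compared) was at most 0.01. Of the snoRNA genes, 44 of 346 were overlapped (12.7%, exact 95% interval 9.39 to 16.7), and of the snRNA genes 12 of 129 (9.3%, 4.9 to 15.7). Over all annotated genes the share was 1.96%. Among other genes no longer than the longest member (344 nt), with piRNA genes left out, it was 4.1%. The tRNA genes stood higher than both, at 147 of 612 (24%, 20.7 to 27.6). Intervals cover counting error only, and genes are not independent, since 2 of the 55 regions at these genes overlapped more than 1 of them. Depth cannot be given, because no file lists read counts.

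The signal that the authors deposited for a region is its enrichment on the scale of their peak caller, and it was set for each list separately, so the values of the replicates, here those of the strongest candidate at the gene, are compared only with each other. The strongest region at any of these genes lay at ZK994.7, a snoRNA gene of 67 nt in an intron of the peroxidasin gene pxn-1. Its signal was 257 in the whole experiment, 128 in replicate 1 and 129 in replicate 2, and it ranked 51 of 968 regions. The region shared by the snoRNA genes C51F7.3 and C51F7.4, in frm-7, had a signal of 194, with 86.4 in replicate 1 and 106 in replicate 2. Both regions were thus found in both replicates, and the replicates lay closer together at ZK994.7 than at C51F7.3.

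C10C6.8, an H/ACA snoRNA gene in an intron of catp-8, had a signal of 174, with 76.0 and 89.1 in replicates 1 and 2. W03C9.9, a C/D snoRNA gene overlapping no protein-coding gene, had 168, with 81.3 and 88.5. T02E1.9, which overlaps an exon of spe-12, had 167, with 83.5 and 79.3. At these 3 genes the replicates differed by less than 1.5-fold and replicate 2 was the higher at the first pair only. Y75B12B.12 had 165, with 89.6 and 81.1, and Y43F8C.22, in an intron of Y43F8C.7, had 144, with 64.0 and 75.2. The replicates differed more at T06C12.16 (139, with 44.5 and 95.2), T19B4.8 (131, with 48.6 and 80.2) and F32E10.10 (119, with 42.9 and 73.0), each higher in replicate 2. F55A11.10 had 121, with 61.7 and 53.0. All 12 were in the thresholded lists of both replicates, and 10 of the 12, all but ZK994.7 and C51F7.4, had boxes A and B upstream. Over all 55 regions at these genes the median signal was 97.8 (quartiles 75.0 and 117), against a median of 81.5 (68.7 and 113) over the other 913 regions, whose highest signal was 2040.

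**Figure D1:**
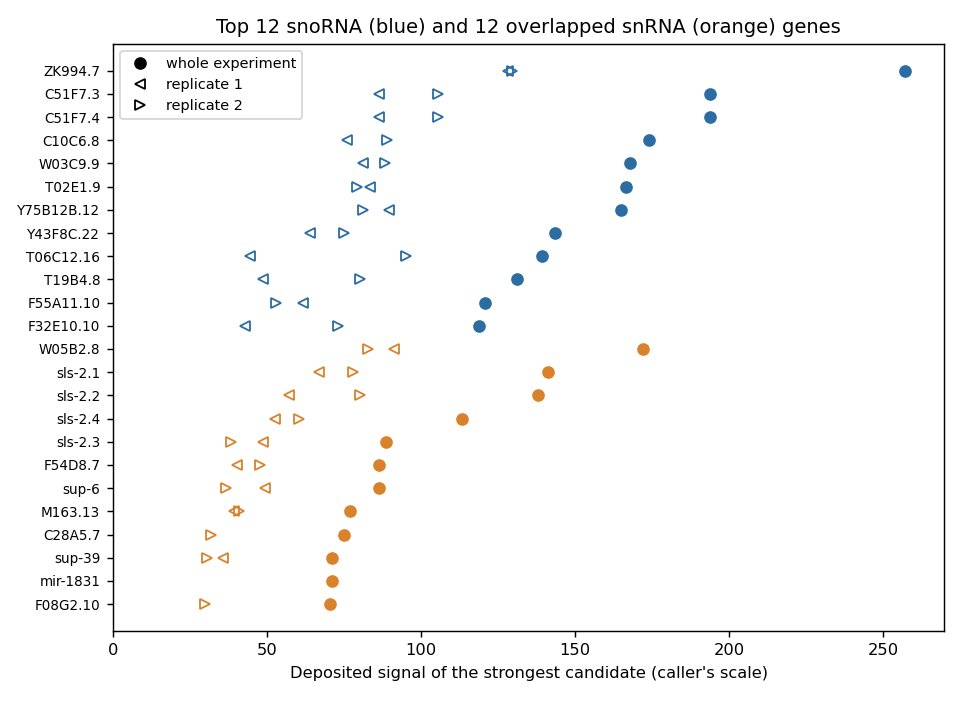
Deposited signal (horizontal axis, caller's scale) of the strongest candidate at the 12 snoRNA genes of highest signal (blue) and the 12 overlapped snRNA genes (orange), for the whole experiment (filled circles), replicate 1 and replicate 2 (open triangles, left and right pointing). Signals of the whole experiment run from 257 at ZK994.7 down to 70.6 at F08G2.10, and the replicates lie far apart at T06C12.16 (44.5 and 95.2).

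Among the snRNA genes, W05B2.8, which lies in an intron of the dynein heavy chain gene dhc-4, had the strongest region (172, with 91.3 in replicate 1 and 83.0 in replicate 2). Its sequence of 102 nt occurs at 17 places in the genome. F54D8.7 (86.5, with 40.1 and 47.7) and C28A5.7 (75.0, with no candidate in replicate 1 and 32.0 in replicate 2) belong to the same family, of which 3 of 24 were overlapped. A gene joined a family where it differed from any member by at most 25% of its bases, so some members may differ by more. F08G2.10 (70.6, with no candidate in replicate 1 and 29.8 in replicate 2) has a sequence found at 9 places. Reads from identical copies cannot be told apart, and no source used here says how the authors placed such reads. Leaving out all members with more than 1 copy left 8 of the 12 snRNA genes and all 44 snoRNA genes.

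The SL2 RNA genes gave 4 of the 12 snRNA genes. sls-2.1 had a signal of 141, with 66.9 in replicate 1 and 78.0 in replicate 2, sls-2.2 had 138, with 57.2 and 80.1, sls-2.4 had 113, with 52.5 and 60.3, and sls-2.3 had 88.6, with 48.8 and 38.5. Replicate 2 was the higher at all but sls-2.3. In all, 4 of 18 sls-2 genes were overlapped (22.2%, 6.41 to 47.6). None of 12 sls-1 genes, which encode the SL1 RNA, was overlapped, which allows a share of up to 25% (3 counts of the total, the rule used for every limit of a count of 0 given here). None of 12 smy genes, which encode the SmY RNAs of nematodes, was overlapped, with the same limit. So few genes do not separate the 3 families.

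Of the remaining snRNA genes, sup-6 (86.4, with 49.3 and 36.7 in replicates 1 and 2) and sup-39 (71.1, with 35.9 and 30.7) are U1 snRNA genes, known from suppressor mutations. The region at sup-39 also counts for mir-1831, a gene of 22 nt that the annotation gives as snRNA and that lies inside sup-39. M163.13 had a signal of 77.0, with 39.2 and 41.1. In the replicates' own thresholded lists only 3 of the 12 snRNA genes were in both, 3 in 1 and 6 in neither, so 6 of them rest on the list of the whole experiment.

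The summits, the points of highest signal within the regions, lay just upstream of the snoRNA genes. Counted from the annotated first base, taken as 0, in the direction of the gene, the median summit of the 44 snoRNA genes was at −33 bp (quartiles −58 and −14). It lay upstream of the gene at 40 of 44 (90.9%, 78.3 to 97.5). All 40 were within 120 bp, which the counting rule nearly fixes. The regions at these genes had a median width of 260 bp (quartiles 260 and 260) and had to touch the gene. The exceptions with a summit inside the gene were ZK994.7 (+1 bp), C51F7.4 (+39 bp) and Y38F2AR.14 (at the first base), and at B0334.12 the summit lay beyond the gene (+104 bp). At the snRNA genes summits were spread more widely, with a median of +14 bp (quartiles −39 and +91.8). They lay upstream at 5 of 12, inside the gene at 6, and beyond it at the short mir-1831. Upstream summits were those of F08G2.10 and sls-2.1 (−63 bp each), M163.13 (−60 bp), sls-2.2 (−32 bp) and sls-2.3 (−11 bp). Those of sup-6 (+106 bp) and sup-39 (+155 bp) lay towards the 3′ end of genes of 165 nt. Because a counted region had to touch the gene, nearness of its summit to the gene was also largely fixed by the rule. Over all 56 genes, 55 summits lay nearer to the 5′ end of the snoRNA or snRNA gene than to any protein-coding 5′ end, which was a median of 1105 bp away. F39B2.14 was the exception, with a protein-coding 5′ end 41 bp from its summit.

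**Figure D2:**
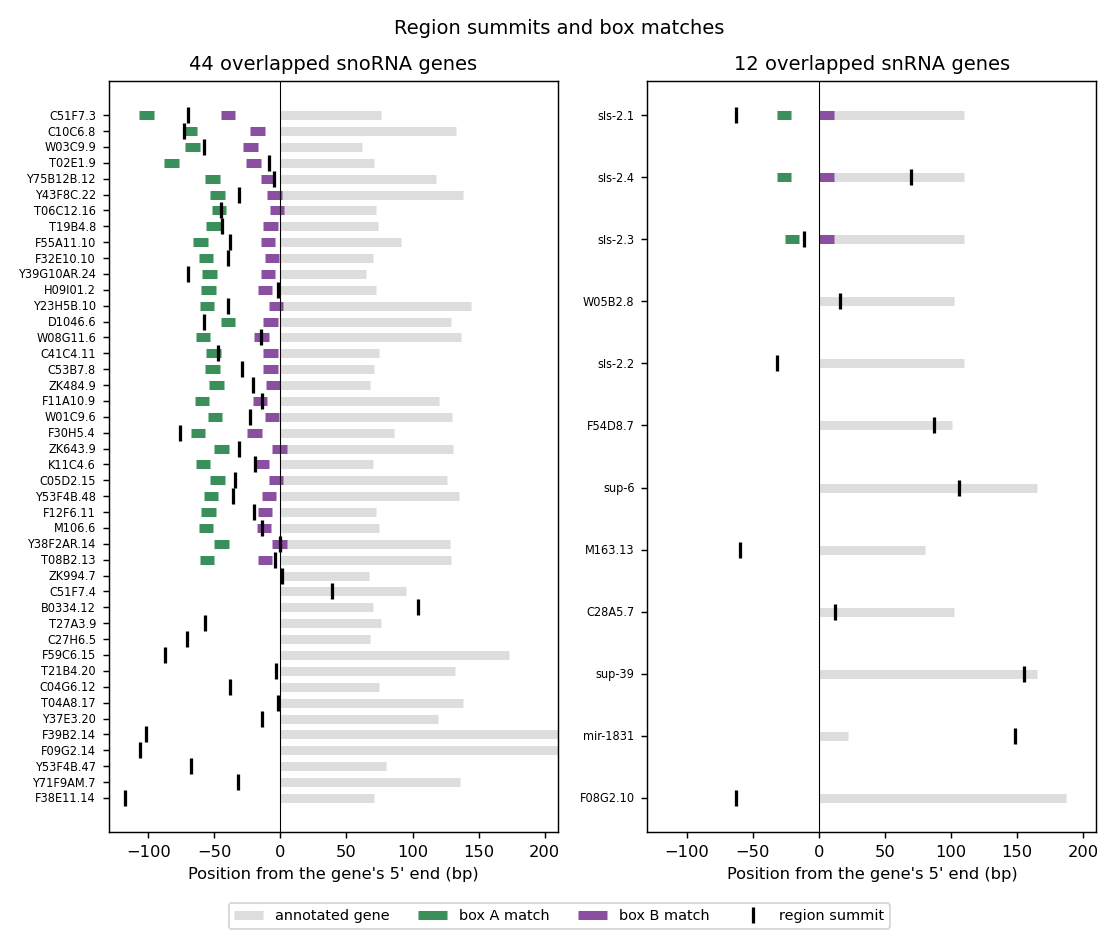
Position from the annotated 5′ end (bp, in the direction of the gene) of region summits (black ticks) and of matches to box A (green) and box B (purple) at the 44 overlapped snoRNA genes (left) and the 12 overlapped snRNA genes (right). Grey bars are the annotated genes (the longest run past the axis), and genes with the box pair come first, ordered by signal. Of the 29 snoRNA genes with the pair, 23 have the summit between the start of box A and the end of box B.

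Intronic and independent genes were overlapped about equally often. A gene was called intronic where it lay wholly inside an intron of a protein-coding gene and touched none of its exons, and independent where it overlapped no protein-coding gene. Of the intronic genes, 26 of 224 were overlapped (11.6%, 7.72 to 16.5), and of the independent genes 25 of 186 (13.4%, 8.89 to 19.2). The difference was −1.83 percentage points with a 95% interval of −8.51 to 4.57 (Newcombe's method, counting error only), so differences of several points in either direction are not excluded by these counts. Among snoRNA genes the shares were 21 of 169 (12.4%) and 18 of 124 (14.5%), and among snRNA genes 5 of 55 (9.09%) and 7 of 62 (11.3%). The list of replicate 1 overlapped 15 intronic and 16 independent genes, and that of replicate 2 overlapped 16 and 15. Genes that overlapped an exon made up the remaining 65, of which 5 were overlapped (7.69%, 2.54 to 17.0), all 5 of them snoRNA genes.

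Among snoRNA genes in introns, those transcribed in the direction of the host were overlapped at 17 of 142 (12%, 7.13 to 18.5) and those in the opposite direction at 4 of 27 (14.8%, 4.19 to 33.7). The 26 overlapped intronic genes lay in 25 different hosts. Among the 23 genes in introns of ribosomal protein genes (rpl and rps) none was overlapped, so a share of up to 13.0% is allowed. Median signals were 97.3 for the 21 overlapped intronic snoRNA genes and 105 for the 18 independent ones, with ranges of 65.2 to 257 and 69.2 to 168 that cover each other for the most part. The median summit was at −21 bp for the intronic and −42 bp for the independent snoRNA genes, and all 18 of the independent ones had the summit upstream.

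Overlap differed between snoRNA genes with and without the box pair. Of the 55 with boxes A and B, 29 were overlapped (52.7%, 38.8 to 66.3), and of the 291 without them 15 (5.15%, 2.91 to 8.36). The difference was 47.6 percentage points (34.3 to 60.3). It was 33.3 points (21.5 to 46.6) in the list of replicate 1, with 20 of 55 against 9 of 291, and 35.4 points (23.5 to 48.7) in that of replicate 2, with 21 of 55 against 8 of 291. Since the boxes were chosen after these regions had been read, the counts describe this experiment and are no independent test. The comparable share of tRNA genes with the pair was 143 of 572 (25%, 21.5 to 28.8).

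The pair was about as frequent at intronic snoRNA genes (30 of 169, 17.8%) as at independent ones (20 of 124, 16.1%). Among those with the pair, 13 of 30 intronic genes (43.3%, 25.5 to 62.6) and 14 of 20 independent genes (70%, 45.7 to 88.1) were overlapped, a difference of −26.7 points whose interval of −48.9 to 1.35 includes 0. Without boxes or a proximal element, 5 of 118 intronic and 2 of 79 independent snoRNA genes were overlapped. Genes of both box classes were included. By the ends of their sequences 15 snoRNA genes could be placed in the C/D class and 58 in the H/ACA class, and 273 in neither. Overlapped were 4 of 15 (26.7%, 7.79 to 55.1) and 12 of 58 (20.7%, 11.2 to 33.4), and those with the pair made up all 4 and 10 of the 12.

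**Figure D3:**
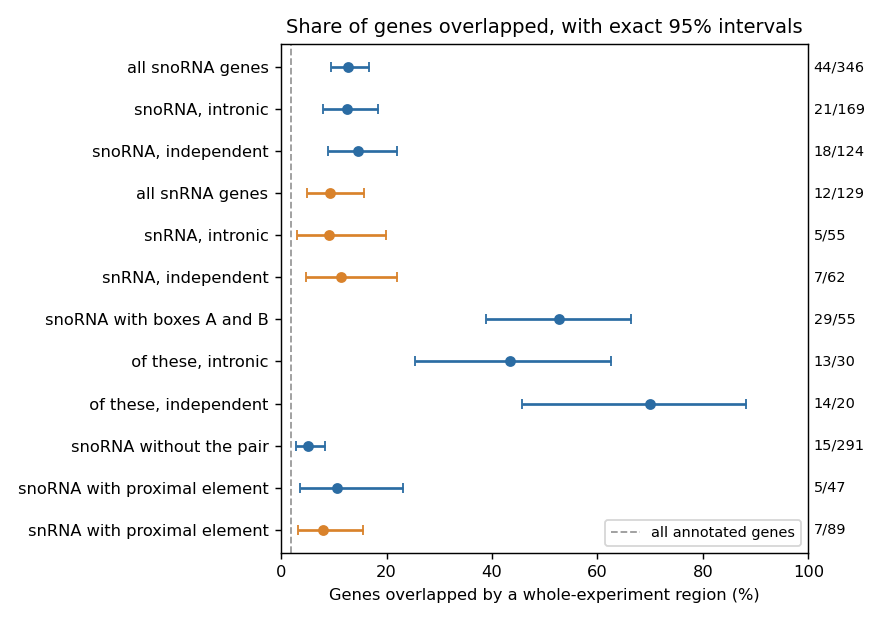
Percentage of genes overlapped by a whole-experiment region (horizontal axis), with exact 95% binomial intervals as bars and the counts at the right, for snoRNA (blue) and snRNA (orange) groups, and the share of all annotated genes (1.96%) as a dashed line. Intronic and independent genes have intervals that cover each other, and snoRNA genes with boxes A and B lie at 52.7% against 5.15% for those without.

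At the 29 overlapped genes with the pair, box A started at a median of 60 bp upstream (−64 to −55, quartiles) and box B at 15 bp upstream (−20 to −12). The spacing from start to start was 43 or 44 bp at 21 of the 29 (72.4%), at 15 of the 26 that were not overlapped (57.7%), and at 343 of the 572 tRNA genes with the pair (60%). The summit lay between the start of box A and the end of box B at 23 of 29, and its distance from the middle of the pair had a median of −2.5 bp (quartiles −13 and 21). No annotated tRNA gene lay in the window of any of the 55 genes, and none of the 55 regions overlapped a tRNA gene. Other noncoding genes were not absent, since the regions at 24 of the 56 overlapped genes also overlapped another noncoding gene. This held for 16 of 44 snoRNA and 8 of 12 snRNA genes. Among the snoRNA genes it held for 13 of 29 with the pair and 3 of 15 without it. Whether the signal there belongs to the other noncoding gene was not tested. Read from the summits and without the annotation of the genes, 33 of the 55 regions held the pair on either strand within 130 bp (60%, 45.9 to 73.0), against 131 of 136 regions at tRNA genes (96.3%) and 107 of the 777 other regions (13.8%).

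Closeness of the match was related to overlap only in part. With at most 3 mismatches over both boxes 23 of 34 snoRNA genes were overlapped (67.6%, 49.5 to 82.6), with 4 mismatches 6 of 14, and with 5 none of 7. Of the 5 genes with no or 1 mismatch, Y43F8C.22 and M106.6 (72.0, with 41.9 in the list of replicate 1 only) were overlapped. The remaining 3 of them were not. Y59E1B.14 and T24H7.6, which match both boxes fully as Y43F8C.22 does, had candidate signals of 17.0 and 62.0, and T10B9.11 had 67.0. T24H7.6 and T10B9.11 lay in the conservative list of the authors although not in the main one. Of the 26 genes with the pair that were not overlapped, 19 had a candidate in the ranked list and 7 had none.

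**Figure D4:**
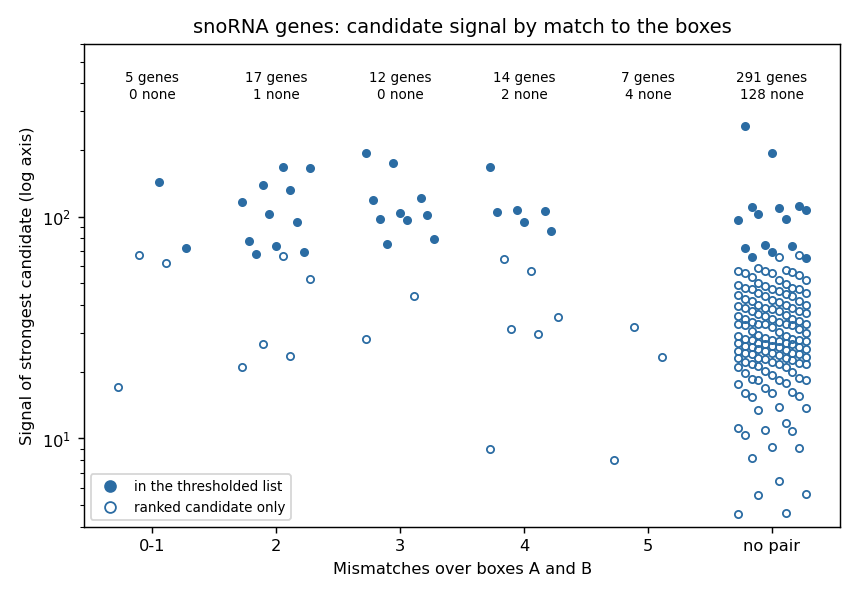
Signal of the strongest whole-experiment candidate (vertical axis, log scale) at each snoRNA gene, grouped by the number of mismatches over boxes A and B, with the genes without the pair at the right. Filled points are in the thresholded list, open points are ranked candidates only, and the numbers printed at the top give the genes in each group and those with no candidate. Filled points make up 29 of the 55 genes with the pair and 15 of the 291 without.

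Base composition moved with these groups. The GC content of the 120 bp upstream had a median of 54.2% at the 44 overlapped snoRNA genes and 42.5% at the 302 others. Within the genes with the pair the medians were 55.0% and 49.2%, and within those without it 50.8% and 41.7%. Its part in the result was not tested.

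T03F7.8 shows a limit of counting by the gene's own span. This snoRNA gene, in an intron and with a full box A and 2 mismatches in box B, had regions in both replicates' lists (signals 119 and 113). The whole-experiment region there had a signal of 233 with its summit at −38 bp but ended 20 bp short of the gene, so the gene was not counted as overlapped. ZK265.10 was alike, with 66.6 and 84.5 in the replicates and a whole-experiment region of 155 that ended 25 bp short, and had no box pair. Counting regions in the 200 bp upstream as well raised the snoRNA genes to 49 and left the snRNA genes at 12. The other 3 genes so added, R166.10, F54E7.10 and W06H8.17, had no box pair and summits at −228, −262 and −184 bp.

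Between genes with the proximal element and those with neither element, the intervals of the overlapped shares cover each other. Of snRNA genes with the element and without boxes A and B, 7 of 89 were overlapped (7.87%, 3.22 to 15.5), and of those with neither 2 of 32 (6.25%, 0.766 to 20.8). Among snoRNA genes, 5 of the 47 with the element and no pair were overlapped (10.6%, 3.55 to 23.1), and 10 of the 244 with neither (4.1%, 1.98 to 7.41). The 5 were ZK994.7 (257), F59C6.15 (108), C04G6.12 (97.3), Y37E3.20 (74.9) and Y53F4B.47 (69.2). ZK994.7, Y37E3.20 and F59C6.15 match the element without a mismatch. The element was not among the motifs fixed beforehand. Read from the summits, it lay within 130 bp on either strand at 19 of 55 regions at these genes (34.5%). The counts were 44 of 136 at regions at tRNA genes (32.4%) and 94 of 777 at other regions (12.1%). Of the 8 snRNA genes with the box pair, 3 were overlapped and 5 were not, and 6 of the 8 also held the proximal element. The 3 were among the 4 overlapped SL2 RNA genes and matched with 4 or 5 mismatches. Box B started at the first base of the gene, so that the match to box B lies in the leader sequence that the family shares. Box A started upstream of the gene, at −32 to −26 bp.

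The replicates gave similar but not identical sets. Each replicate's list overlapped 34 of the 475 genes, where 0.934% of all annotated genes were overlapped in replicate 1 and 0.909% in replicate 2. Both lists overlapped 25 genes (5.26%), where 0.554% of all annotated genes were overlapped by both, so 25 of the 34 genes of each replicate were also found in the other. Of the 56 genes of the whole experiment, 23 were in both lists, 14 in 1 and 19 in neither. By type, 20 of 44 snoRNA genes and 3 of 12 snRNA genes were in both.

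Candidates below the threshold are plentiful, since those of the whole-experiment ranked list cover 23.4% of the genome. They overlapped 211 of 346 snoRNA genes (61.0%, 55.6 to 66.2) and 71 of 129 snRNA genes (55.0%, 46.0 to 63.8), against 50.8% of all annotated genes, so these shares lie near the background. Candidates in both replicates were found at 139 of the 475 (29.3%). The same share over all annotated genes was not counted, so this one cannot be set against a background. The ranked lists of replicates 1 and 2 cover 13.4% and 12.5% of the genome. The candidates' signals in the replicates differed by at most 1.5-fold at 94 of the 139 and at most 2-fold at 122. They did so at 40 and 48 of the 52 overlapped genes that had both. Across the 139 genes Spearman's rho between the replicates was 0.787, and across the 52 overlapped genes it was 0.532. These are descriptions across genes, some of which share a region. Replicate 2 was the higher at 30 of those 52 genes and replicate 1 at the others.

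**Figure D5:**
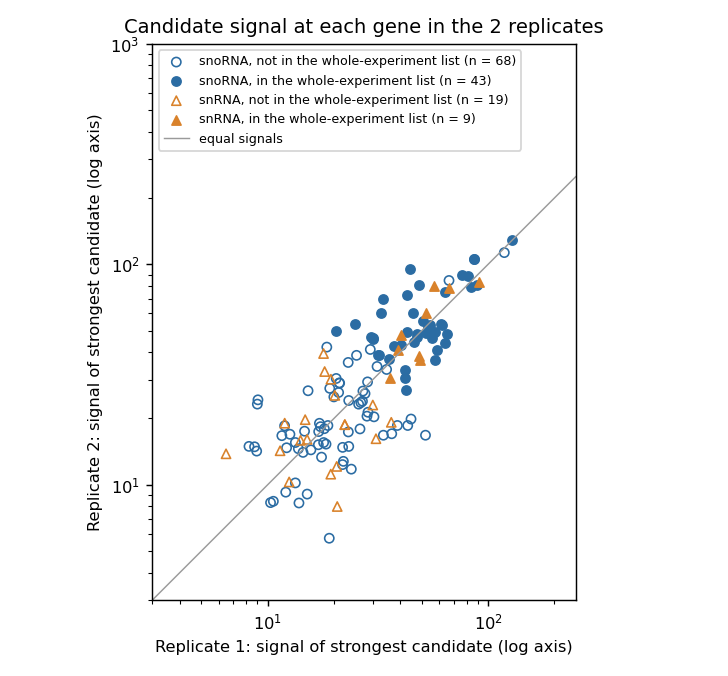
Signal of the strongest candidate in replicate 1 (horizontal axis) and replicate 2 (vertical axis), both on log axes, at the 139 genes with a candidate in both. Circles are snoRNA and triangles snRNA genes, filled where the whole-experiment list overlaps the gene, and the line marks equal signals. ZK994.7 is highest at 128 and 129, and the filled point lowest in replicate 1 is Y71F9AM.7 at 20.4 and 49.8.

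The largest differences among genes in only 1 replicate's list were found at Y71D11A.7 (52.1 in replicate 1 and 16.8 in replicate 2, 3.1-fold), Y71F9AM.7 (20.4 and 49.8, 2.44-fold) and ZK546.18 (18.6 and 42.2, 2.27-fold). They do not all point the same way, as the first was higher in replicate 1 and the others in replicate 2. Y71F9AM.7 was overlapped in the whole experiment (65.9) and the others were not.

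Around the threshold the signals were continuous. Just inside it lay F38E11.14 (IDR 0.00873, signal 65.2), T08B2.13 (0.00831, 68.0) and F09G2.14 (0.00683, 72.4). Just outside lay Y54G2A.74 (0.0122, 65.5), T10B9.11 (0.0123, 67.0) and Y71D11A.7 (0.0158, 64.1). The last 2 carry boxes A and B, and their signals are close to those of the weakest overlapped genes.

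The E-box was found near the summit of a single region. CACGTG lay within 50 bp of the summit at 1 of 55 regions (1.82%, 0.046 to 9.72), that of ZK484.9, against 163 of the 913 regions elsewhere (17.9%, 15.4 to 20.5) and 0 of 136 regions at tRNA genes (limit 2.21%). In the 100 bp upstream of the genes it was found at 1 of 44 overlapped and 5 of 302 other snoRNA genes. The windows of 150 bp at all protein-coding 5′ ends, placed as for the boxes, were overlapped by a whole-experiment region at 0.846%. That value is a share overlapped and no count of CACGTG. Each of the other motifs was counted both upstream of the snoRNA genes and near the summits. CGAACC, part of box B on the opposite strand, lay in the 100 bp upstream of 12 of 44 overlapped snoRNA genes (27.3%, 15 to 42.8) and 12 of 302 others (3.97%, 2.07 to 6.84). Within 50 bp of the summit it was found at 9 of 55 regions (16.4%, 7.77 to 28.8), at 101 of 913 elsewhere (11.1%, 9.1 to 13.3) and at 73 of 136 at tRNA genes (53.7%, 44.9 to 62.3). The 913 regions elsewhere include the 136 at tRNA genes, which held 73 of the 101 matches and so raise the share elsewhere. By that window the interval of these regions covers the share of all those elsewhere. The coverage therefore says nothing of regions away from tRNA genes. TATAAA lay within 50 bp of the summit at 11 of 55 regions (20%, 10.4 to 33.0) and at 40 of 913 elsewhere (4.38%, 3.15 to 5.92). Upstream of the genes it was found at 7 of 44 overlapped (15.9%, 6.64 to 30.1) and 31 of 302 other snoRNA genes (10.3%, 7.08 to 14.3), with intervals that cover each other. ACGCAG lay near the summit of 7 of 55 regions (12.7%, 5.27 to 24.5) and 126 of 913 elsewhere (13.8%, 11.6 to 16.2), and upstream of 5 of 44 overlapped (11.4%, 3.79 to 24.6) and 12 of 302 other snoRNA genes (3.97%, 2.07 to 6.84). CACGCG was near the summit of 8 of 55 and 77 of 913 regions and upstream of 6 of 44 and 9 of 302 snoRNA genes, and CACATG near the summit of 4 of 55 and 133 of 913 regions and upstream of 3 of 44 and 8 of 302. A match is a description of the sequence and not a site of binding.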

How the data were processed

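MXL-2 ChIP-seq was read from peak lists on the ce11 assembly that the authors deposited. The deposited signal is enrichment on the scale of their peak caller, and in the ranked lists a further deposited column gives the IDR as −log10. No source used here names the aligner, caller or their versions, and depth is unknown. Overlapping lines were joined and the strongest summit kept. Genes came from Ensembl release 115, symbols and sequence from RefSeq, with Python 3.11.15, NumPy 2.4.6 and SciPy 1.17.1. Shares have exact (Clopper-Pearson) 95% intervals, limits of a count of 0 are 3 counts of the total and lie below the exact interval's bound, and differences Newcombe's interval from statsmodels 0.14.6. No p-value was computed, since 1 group of 2 replicates without counts allows no comparison of groups. Other lists, thresholds, overlaps and box settings were tried. Overlap counting and the box search were tested on simulated data. The members and lists were chosen with earlier results of these data known. Named were the 12 snoRNA, 12 snRNA and 6 intronic genes of highest signal, the 3 largest replicate ratios among genes in 1 replicate's list, and the 3 genes on either side of an IDR of 0.01. Others were chosen after their values were seen.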

Additional observations from a re-analysis of the deposited data

How the results depend on the processing

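No paired analysis was possible because the labels give only 1 group. The alternatives on the boxes were chosen after seeing the data. Of 98 alternative values, 70 stayed within 1.5 times the main count or within the spread of the replicates. Part of the 70 was fixed by the settings, so their number is no measure of stability. Leaving overlapping lines unjoined could not change a count of genes. With 1 replicate left out, the count of genes in both replicates (34) set the other's list against itself. The spread came from the same 2 replicates whose medians were compared. With each replicate's own list, the counts were 29 snoRNA genes (from 44), 5 snRNA genes (from 12), 15 to 16 intronic genes (from 26), 15 to 16 independent genes (from 25), 20 to 21 snoRNA genes with the boxes (from 29) and 0 regions with CACGTG (from 1), and the median signal was 57.3 to 60.3, on the scale of those lists. With only the regions shared with both replicates' lists, 20 snoRNA, 3 snRNA, 10 intronic and 11 independent genes remained, 0 regions held CACGTG, and the median signal was 126. With only the regions above the median signal, 7 snRNA genes, 15 intronic genes and 12 genes in both replicates were overlapped, and the median signal was 109. Candidates at an IDR of 0.05 gave a median signal of 86.5. Where a region had to cover at least 50% of the gene, the median summit moved from −31 to −22 bp and the median signal to 102, which was also the value without members with several copies. CACGTG was found in 2 regions within 100 bp of the summit and in 2 anywhere in the region. Leaving out regions at tRNA genes changed nothing, since none overlapped one. The cause of these shifts was not tested. Unknown depth and the lack of a control library limit what an absent region means.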
